A study of Mus musculus with 4 samples.

Results

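A set of 10 genes of prostaglandin synthesis, sensing and breakdown was followed in the mouse ovarian cancer line BR5FVB1-Akt with and without decitabine. They were Pla2g4a, Ptgs1, Ptgs2, Ptges, Ptges2, Ptges3, Ptgis, Akr1c18, Ptger4 and Hpgd. Of these 10 genes, 9 had an array row that carried their symbol alone, out of 22180 genes measured in that way, and the row with the highest mean stood for a gene. Ptgs1 had no such row and is not analysed here. Ptgs2 and Akr1c18 were chosen by their log2 difference between decitabine and control in these same arrays, so their values are given as a description with no test, and the tests concern the other 7 measured genes.

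Prostaglandins are lipid mediators made from arachidonic acid, which phospholipases release from membranes. The cyclooxygenases Ptgs1 and Ptgs2 turn it into prostaglandin H2, terminal synthases convert that into prostaglandin E2, prostacyclin and other products, and these act on receptors of nearby cells until they are taken up and oxidised. Ptgs2 is the inducible cyclooxygenase, known for its part in inflammation, ovulation and tumour growth.

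The control group was 2 arrays of cells cultured without the drug and the decitabine group 2 arrays of cells given 10 uM decitabine for 72 h. Decitabine is a cytidine analogue that traps DNA methyltransferases on replicating DNA and lowers DNA methylation. The labels give the line and the tissue type, ovarian cancer, but no alleles, clone or vehicle, and describe samples within a group as biological replicates without saying how they were cultured. The p-values therefore rest on the spread between these 4 arrays alone, and the test draws the spread of each gene towards that of all genes.

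Expression was read as log2 values on Affymetrix Mouse Gene 2.0 ST arrays, whose small number limited precision. The array medians lay between 4.60 and 4.66, and Pearson's r across genes, which are not independent replicates, was 0.990 to 0.995 between any 2 arrays. The tissue label was set beside marker lists. Of 10 epithelial and ovarian surface markers 8 lay above the median level of all genes, including Wt1 (10.53 to 10.86 over the arrays) and Upk3b (11.77 to 11.99), and Epcam (4.62 to 4.99) and Pax8 (3.46 to 3.62) did not. Of 8 fibroblast markers 7 lay above it, including Dcn (11.74 to 11.82) and Col1a1 (10.24 to 10.47), as did 2 of 7 leukocyte, 1 of 6 endothelial and 0 of 7 mast cell markers. No background level could be set, so no marker could be called present or absent. The mean level differed between the groups in several of these lists. The mean over the epithelial and ovarian surface markers was 7.45 and 7.48 in the controls and 7.66 and 7.72 with decitabine, and the mean over the fibroblast markers went from 8.67 and 8.69 to 8.90 and 8.98. In the fibroblast list Thy1 (log2 fold change 1.48) and Acta2 (0.72) carried that difference, the median of the 8 markers being 0.08. The mean over the leukocyte markers was 3.97 and 4.09 against 4.10 and 4.32, that over the endothelial markers 4.35 and 4.48 against 4.53 and 4.63, and that over the mast cell markers 3.15 and 3.19 against 3.11 and 3.20. No marker of these lists passed in limma after adjustment over all genes. At an unadjusted p under 0.05, 4 epithelial, 2 fibroblast, 2 leukocyte and 2 endothelial markers were higher, where 7.34% of all genes were, and 1 epithelial, 1 fibroblast and 1 mast cell marker lower, where 6.97% of all genes were. A variance model with an intensity trend, which lets the spread depend on the level, called 3.68% of all genes higher and 3.6% lower. With it 4 of the 10 epithelial markers passed as higher (Krt8, Krt18, Krt19 and Msln) and 2 as lower (Wt1 and Upk3b), 2 of the 8 fibroblast markers as higher (Thy1 and Acta2) and 1 as lower (Pdgfra), and 1 of the 7 leukocyte markers, Cd68, as higher. The part of these shifts in the values below was not tested, and in RNA from whole cultures fewer cells of a type and less RNA per cell cannot be told apart.

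The promoters of the genes picked for their rise are shown with that of Pla2g4a, the protein-coding gene next to Ptgs2 on chromosome 1, because CpG dinucleotides are the sites whose methylation decitabine lowers. Methylation itself was not measured. Each sequence is the 250 bases before an annotated start site, taken from RefSeq, build GRCm38.p6, and written 5′ to 3′ on the strand of the gene with its CpG dinucleotides in capitals. The Ptgs2 sequence spans chr1:150099781-150100030 on the plus strand, that of Akr1c18 chr13:4150647-4150896 on the minus strand, and that of the upstream start of Pla2g4a chr1:149961291-149961540 on the minus strand.
Ptgs2: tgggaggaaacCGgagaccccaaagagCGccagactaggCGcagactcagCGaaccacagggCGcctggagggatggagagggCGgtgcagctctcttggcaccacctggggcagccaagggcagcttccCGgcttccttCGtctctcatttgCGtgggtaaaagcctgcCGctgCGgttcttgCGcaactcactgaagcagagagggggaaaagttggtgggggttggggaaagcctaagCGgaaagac
Akr1c18: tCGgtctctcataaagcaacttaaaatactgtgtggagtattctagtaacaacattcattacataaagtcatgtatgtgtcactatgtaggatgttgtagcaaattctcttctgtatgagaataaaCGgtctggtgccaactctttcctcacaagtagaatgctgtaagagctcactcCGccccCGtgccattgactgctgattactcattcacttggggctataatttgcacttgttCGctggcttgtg
Pla2g4a: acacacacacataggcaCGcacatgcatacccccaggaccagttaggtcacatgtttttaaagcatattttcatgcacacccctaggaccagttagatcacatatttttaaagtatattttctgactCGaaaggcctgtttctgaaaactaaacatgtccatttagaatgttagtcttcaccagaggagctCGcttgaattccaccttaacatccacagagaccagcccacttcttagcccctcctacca

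The Ptgs2 window held 13 CpG dinucleotides, that of Akr1c18 5 and that of Pla2g4a 3, against a median of 6 over 32851 RefSeq windows of the same length. Fewer CpG dinucleotides than in Ptgs2 were found in 68.5% of those windows, fewer than in Akr1c18 in 44.4% and fewer than in Pla2g4a in 29.0%. The genes picked for their rise thus lay on either side of that median. Among the other genes with a window, Ptges3 held 38, Ptger4 19, Ptges2 15, Hpgd 9, Ptges 8 and Ptgs1 5, and a downstream start of Pla2g4a held 1. Motifs were searched on both strands, with a palindrome counted once. The C/EBP motif TTNCNNAA, present in 36.8% of all windows, occurred at 2 places in Ptgs2, including TTGCGCAA from -69 to -62 relative to the start site, whose middle is a CpG. It occurred once in Akr1c18, as TTACATAA from -192 to -185. The windows of Ptgs2 and Akr1c18 held 0 matches to TATAAA (12.4% of all windows), TGACG (17.8%) or TGACGTCA, which contains it (1.55%), CACGTG (6.02%), TGANTCA (6.75%) and an NF-kB motif (3.90%). The search ended at the annotated start site, so a motif past it was not looked for. A match is a run of letters, and its absence here says nothing of the factors or of the rest of the promoter.

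Ptgs2 and Akr1c18 stood apart from the other 7 genes in the size of their difference, which is how they were chosen. The level of Ptgs2 on chromosome 1 was 6.87 and 6.56 in the controls and 8.72 and 8.63 with decitabine. Both decitabine arrays lay far above both control arrays, and the gap within a group was at most 0.31. The means were 6.72 ± 0.22 (SD, n = 2) and 8.67 ± 0.06, a log2 fold change of 1.95 ± 0.14 (SE), or 3.87-fold. Akr1c18, on chromosome 13, encodes the mouse dehydrogenase that inactivates progesterone in the corpus luteum, where prostaglandin F2 alpha is known to induce it, and its human relatives include a prostaglandin F synthase. Its level was 4.38 and 4.32 in the controls and 6.34 and 6.08 with decitabine. The control values lay under the median of all rows on those arrays, 4.60, and no background level could be set for them. Again the groups were widely separated, with the larger gap, 0.26, between the decitabine arrays. The means were 4.35 ± 0.04 (SD, n = 2) and 6.21 ± 0.18, a log2 fold change of 1.86 ± 0.13 (SE), or 3.64-fold. Over all genes tested 0.131% were called higher and 0.0135% lower in limma, and nothing is read from these 2 picked genes against that share.

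**Figure D1:**
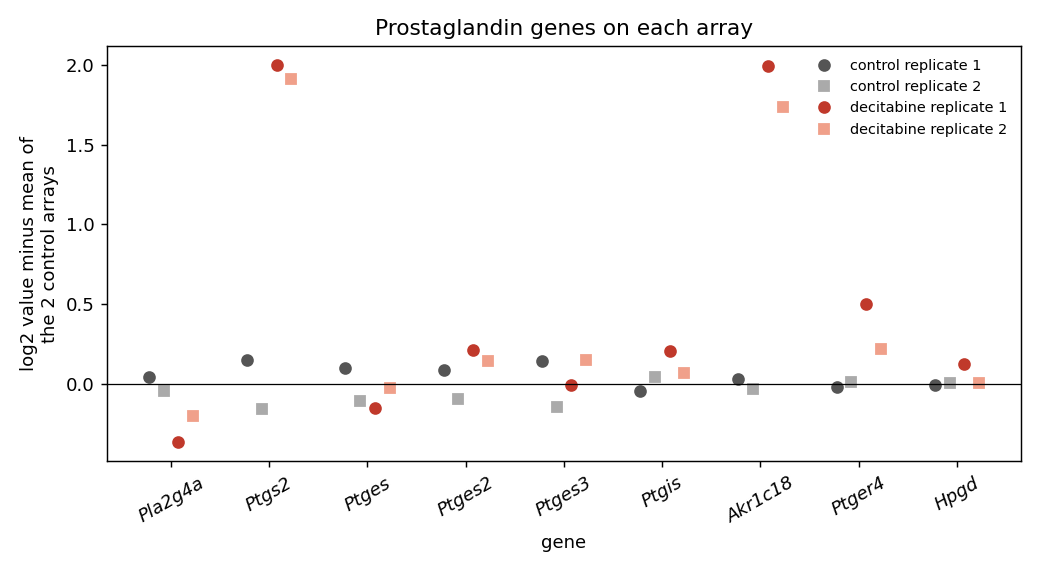
Log2 value on each array minus the mean of the 2 control arrays (vertical axis) for the 9 measured genes, ordered from arachidonate release to breakdown. Grey points are control arrays, red points decitabine arrays, and circles and squares are replicates 1 and 2. Ptgs2 and Akr1c18, picked for this, lie at about 1.7 to 2.0 with decitabine, and all other values lie between about -0.4 and 0.5.

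None of the 7 measured genes that were not picked passed in limma after Benjamini-Hochberg adjustment over all genes, where 0.144% of all genes passed in either direction. At an unadjusted p under 0.05, 1 of the 7 was higher (Ptger4), where 7.34% of all genes were, and 0 lower, where 6.97% of all genes were. Their median log2 fold change was 0.07, beside 0.00 over all genes tested. For all 7 the 95% confidence interval excluded a 2-fold difference in either direction. Both decitabine arrays lay above both control arrays for 4 of them, Ptges2, Ptgis, Ptger4 and Hpgd, and below for 1, Pla2g4a, where 23.4% and 22.5% of all genes did so. All 7 lay above the 25th percentile of level and 6 above the median level, Hpgd being the exception.

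At the first step, Pla2g4a encodes the cytosolic phospholipase that releases arachidonic acid. Its level was 9.87 and 9.79 in the controls and 9.47 and 9.63 with decitabine. The decitabine arrays were both below the controls, by less than the differences of Ptgs2 and Akr1c18. The log2 fold change was -0.28 ± 0.11 (SE), with a 95% confidence interval from -0.57 to 0.00, and it did not pass (limma, adjusted p = 0.351). The model with the intensity trend called 7.28% of all genes, 3.6% as lower, and there Pla2g4a did pass as lower (limma with trend, adjusted p = 0.0362). The adjusted p ranged from 0.0362 to 0.697 over the alternatives.

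The prostaglandin E synthases were each close to their control level. Ptges, the inducible membrane-bound synthase that usually works with Ptgs2, lay at 5.56 and 5.35 in the controls and at 5.30 and 5.43 with decitabine. These values overlapped, and the log2 fold change of -0.09 ± 0.12 (SE) had an interval from -0.40 to 0.22 (limma, adjusted p = 0.806). Ptges2, a second membrane-associated synthase, lay at 7.14 and 6.95 without and at 7.26 and 7.19 with the drug. Its decitabine arrays were the higher ones by a margin smaller than the gap between the controls, and the log2 fold change of 0.18 ± 0.11 (SE) did not pass (limma, adjusted p = 0.537).

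Ptges3, a cytosolic synthase that also serves as a co-chaperone of Hsp90, was measured by a row of its own and by 2 rows shared with the pseudogene Ptges3-ps. Its own row read 6.38 and 6.10 in the controls and 6.24 and 6.39 with decitabine. The groups overlapped, with a log2 fold change of 0.07 ± 0.14 (SE; limma, adjusted p = 0.863). The shared rows, which cannot be assigned to the gene or the pseudogene, had mean levels of 8.41 and 10.28 in the controls and of 8.44 and 10.36 with decitabine. Their differences, 0.03 and 0.08 in log2, were close to that of the gene's own row.

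Prostacyclin synthase, encoded by Ptgis, had a level of 9.52 and 9.61 in the controls and of 9.77 and 9.63 with decitabine. The lower decitabine array was only just above the higher control. Its log2 fold change was 0.14 ± 0.11 (SE), with an interval from -0.14 to 0.41 (limma, adjusted p = 0.631).

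Ptger4 encodes the EP4 receptor, through which prostaglandin E2 raises cyclic AMP. Its level was 5.81 and 5.84 in the controls and 6.32 and 6.04 with decitabine. Both decitabine arrays were higher, but they differed by 0.28 from each other. The log2 fold change of 0.36 ± 0.13 (SE; interval from 0.03 to 0.69) did not pass after adjustment in limma (adjusted p = 0.325), nor with the intensity trend (adjusted p = 0.163).

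Hpgd, the dehydrogenase that begins the inactivation of prostaglandin E2, was the 1 row of the 9 below the median level of all genes. Levels here are means over the 4 arrays, so that of Akr1c18 takes in its higher decitabine values. Hpgd read 3.82 and 3.83 in the controls and 3.95 and 3.83 with decitabine. Decitabine replicate 2 was level with the controls, and the log2 fold change was 0.07 ± 0.10 (SE; interval from -0.19 to 0.33; limma, adjusted p = 0.824). No detection level could be set for this row.

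Beyond these genes, 8 lists of the wider pathway were followed, with 141 of 157 genes measured. None of the 141 passed in limma after adjustment over all genes, where 0.144% of all genes passed in either direction. Positive values were found for 70 of them, with a median log2 fold change of 0.00 over the 141. At an unadjusted p under 0.05, 15 were higher (10.6%, against 7.34% of all genes) and 14 lower (9.93%, against 6.97%). With the intensity trend 6 were higher (4.26%, against 3.68%) and 7 lower (4.96%, against 3.6%). When 1 array was left out, the smallest adjusted p of any gene on the array was 0.132 to 0.566, and the highest adjusted p of these 13 genes over the alternatives run was 0.566 (Ggt5) to 0.707 (Zfp36l1). By the unadjusted p and with the intensity trend the shares were a little above those of all genes in each direction. Of the 141, 124 lay above the 25th percentile of level, and the shares among genes of like level were not computed. No test was made of the lists as such.

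**Figure D2:**
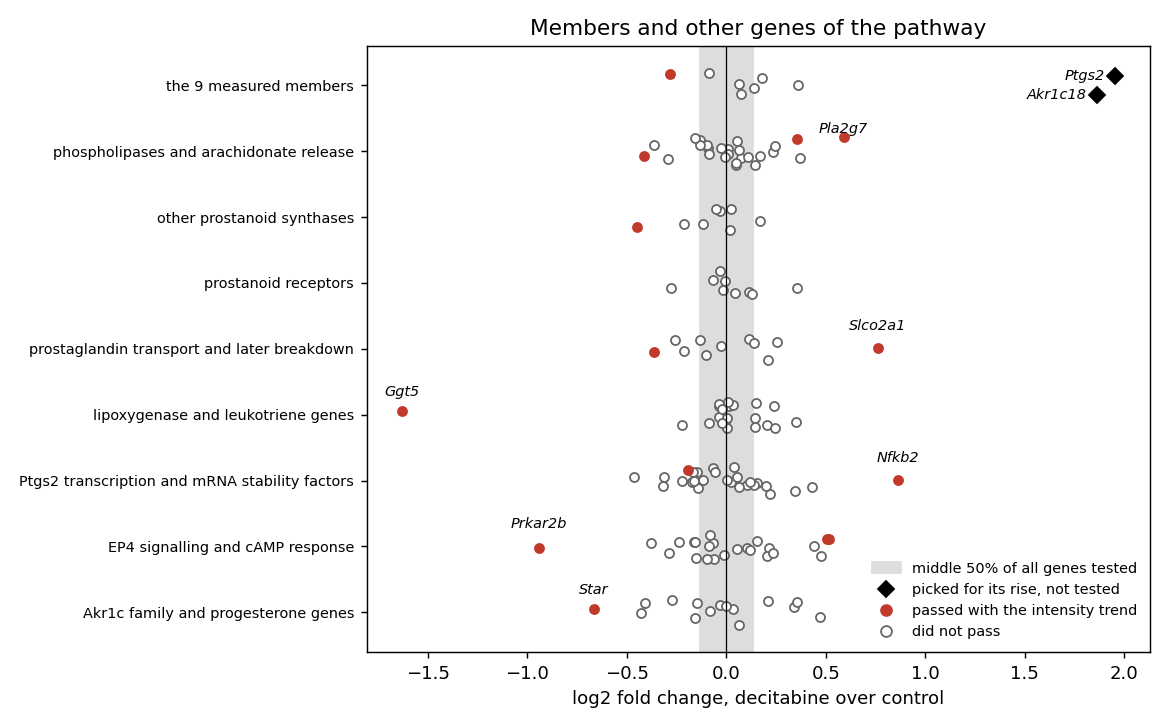
Log2 fold change, decitabine over control (horizontal axis), for the 9 measured genes (top line) and 141 other genes in 8 lists (1 point a gene). Filled circles passed with the intensity trend, open circles did not, black diamonds were picked for their rise and not tested, and the grey band holds the middle 50% of all genes tested, from -0.13 to 0.14. Most points lie in or near the band, with Ggt5 at -1.63 the farthest of the circles.

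The lowest value among the pathway genes was that of Ggt5, a gamma-glutamyltransferase that converts leukotriene C4 into leukotriene D4. Its level was 6.72 and 6.40 in the controls and 4.99 and 4.87 with decitabine. The groups were widely apart, by 3.09-fold (log2 fold change -1.63 ± 0.14, SE). The adjusted p was 0.0522 in limma, just above the threshold, 1.13e-04 with the intensity trend and 0.0285 with arrays centred on their median. It was also under 0.05 in limma with the filters on level (0.0202 and 0.00256) and with averaged rows (0.0477). Quantile normalization (0.0506), robust eBayes (0.0614), the replicate block (0.116) and all rows fitted (0.352) left it above 0.05. Ggt5 thus fell by some alternatives and not by the fit as designed. Of the 21 measured lipoxygenase and leukotriene genes, 0 others passed in either of the fits with and without a trend, where 7.28% and 0.144% of all genes did. Alox5ap, which presents arachidonate to the lipoxygenase, was at 0.35 ± 0.13 (SE), and the epoxide hydrolase Ephx2 at -0.22 ± 0.13.

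Among 11 genes of prostaglandin transport and later breakdown, the highest value was that of Slco2a1, the transporter that brings prostaglandins back into cells for oxidation. Its level was 7.65 and 7.70 in the controls and 8.40 and 8.48 with decitabine. The gap between the groups was many times that within them, and the log2 fold change was 0.76 ± 0.10 (SE), or 1.70-fold. It did not pass in limma without a trend (adjusted p = 0.0943) and rose with it (adjusted p = 2.39e-04). Zadh2, a reductase of oxidised prostaglandins, was at -0.36 ± 0.11 and fell only in the fit with the trend (limma, adjusted p = 0.0422). The efflux pump Abcc1 was at 0.26 ± 0.12.

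Of 26 phospholipase and arachidonate-handling genes, 2 rose (7.69%) and 1 fell (3.85%) with the intensity trend in limma, against 3.68% and 3.6% of all genes. Pla2g7, which hydrolyses platelet-activating factor, was at 6.87 and 7.08 in the controls and at 7.57 on both decitabine arrays, a log2 fold change of 0.59 ± 0.12 (SE; adjusted p = 0.00498 with the trend and 0.158 without). Acsl4, the ligase that activates arachidonate for storage in phospholipids, was at 0.36 ± 0.11 (adjusted p = 0.0146 in limma with the trend), and was named after its value was seen. Lpcat3, which places polyunsaturated acids into phospholipids, was at 10.42 and 10.40 in the controls and at 10.02 and 9.98 with decitabine, a log2 fold change of -0.41 ± 0.10 (SE; adjusted p = 0.00115 in limma with the trend and 0.195 without). Pla2g4e, a relative of Pla2g4a, was at -0.37 ± 0.11 and did not pass in either fit.

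Of 8 other prostanoid synthases and reductases, Akr1b8 alone (12.5%, against 3.6% of all genes lower) passed with the trend, as lower, at -0.45 ± 0.11 (SE; limma, adjusted p = 0.0131, and 0.213 without the trend). Thromboxane synthase, Tbxas1, was at 0.17 ± 0.10 and the carbonyl reductase Cbr1, which can turn prostaglandin E2 into F2 alpha, at -0.21 ± 0.18. None of 9 further prostanoid receptors passed in limma with or without the trend, where 7.28% and 0.144% of all genes did. At an unadjusted p under 0.05 without the trend 1 was higher, Ptger2, and 1 lower, Ptger3, each 11.1% of the 9, against 7.34% and 6.97% of all genes. Ptger2, which like Ptger4 raises cyclic AMP, was at 0.36 ± 0.13, the inhibitory receptor Ptger3 at -0.28 ± 0.10 and the prostaglandin D2 receptor Ptgdr at 0.12 ± 0.11.

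Of 27 measured regulators of Ptgs2 transcription and of its mRNA, 0 passed in limma without a trend and 1 rose and 1 fell with it, each 3.70% of the list against 3.68% and 3.6% of all genes. In 10 of the 27 (37.0%) both decitabine arrays lay above the controls and in 10 (37.0%) below, where 23.4% and 22.5% of all genes did so. Of the 27, 24 lay above the median level of all genes, and the shares among genes of like level were not computed. Nfkb2, a subunit of NF-kB made as an inhibitory precursor, was at 7.29 and 7.25 in the controls and at 8.18 and 8.08 with decitabine. Its log2 fold change of 0.86 ± 0.10 (SE) did not pass in limma without a trend (adjusted p = 0.0762) and passed as higher with it (adjusted p = 1.92e-04). Its partner Relb was at 0.43 ± 0.14 and the transcription factor Cebpd at -0.32 ± 0.10, neither passing in either fit. Zfp36l1, which promotes decay of AU-rich mRNAs and was named after its value was seen, was at -0.19 ± 0.09 and passed as lower with the trend (limma, adjusted p = 0.0376).

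Of 24 genes of EP4 signalling and the cyclic AMP response, 2 rose (8.33%) and 1 fell (4.17%) in limma with the trend, against 3.68% and 3.6% of all genes. The regulatory subunit of protein kinase A Prkar2b was at 7.71 and 7.43 in the controls and at 6.77 and 6.49 with decitabine, a log2 fold change of -0.94 ± 0.16 (SE; adjusted p = 0.00136 with the trend and 0.130 without). The orphan nuclear receptor Nr4a2, an immediate-early gene of this response, was at 0.51 ± 0.10 (adjusted p = 0.0208 in limma with the trend), and its relative Nr4a3 at 0.44 ± 0.10 did not pass. The kinase gene Sik1, named after its value was seen, was at 0.52 ± 0.12 (adjusted p = 0.00607 in limma with the trend).

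Akr1c18 lies in a cluster of closely related Akr1c genes on chromosome 13, and its difference was not seen in the measured neighbours. Akr1c14, the next protein-coding gene in RefSeq order, was at 0.03 ± 0.13 (SE). On the other side the adjacent gene, Akr1c13, had no row of its own. Beyond it Akr1c19 was at -0.16 ± 0.20, Akr1c12 at -0.08 ± 0.28 and Akr1c6 at 0.21 ± 0.10. Akr1c20 was at -0.27 ± 0.17 and Akr1c21 at -0.15 ± 0.18. Of the 6 measured, 0 passed in limma with or without the trend, where 7.28% and 0.144% of all genes did. Without the trend 0 had an unadjusted p under 0.05, where 7.34% of all genes were higher and 6.97% lower. All of the 6 but Akr1c14 had control values under 4. The genes are alike in sequence, and whether their probes read more than 1 of them was not tested. Among the progesterone genes of the same list, Star, which carries cholesterol into mitochondria for steroid synthesis, was at 10.28 and 10.12 in the controls and at 9.51 and 9.56 with decitabine. Its log2 fold change was -0.67 ± 0.11 (SE; adjusted p = 2.00e-04 in limma with the trend and 0.126 without). Hsd3b6, a steroid dehydrogenase, was at -0.41 ± 0.10 and the progesterone receptor Pgr at 0.36 ± 0.10, neither passing in either fit.

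The measured genes around Ptgs2 on chromosome 1 did not share its difference either. Its neighbours in RefSeq order are Pla2g4a, described above, and on the other side Pdc, at -0.13 ± 0.16 (SE), followed by Odr4 at -0.06 ± 0.11. Beyond Pla2g4a lay Brinp3 at -0.24 ± 0.10. These neighbours were looked up after the values were seen. Pdc, Odr4 and Brinp3 did not pass in limma with or without the trend, where 7.28% and 0.144% of all genes did. Pdc (3.66 to 4.08 over the arrays) and Brinp3 (3.29 to 3.62) were dim, and no detection level could be set for them.

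**Figure D3:**
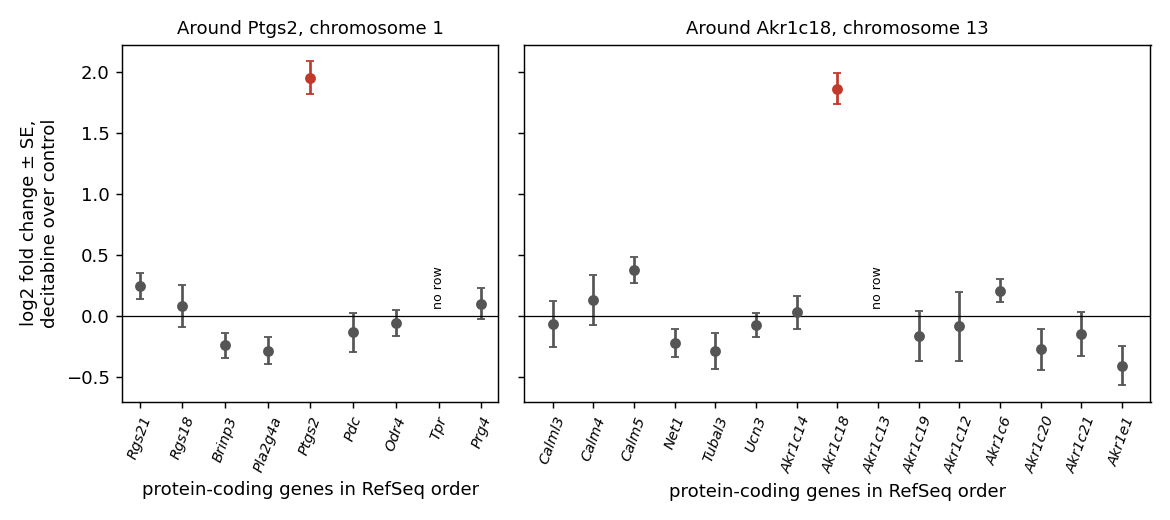
Log2 fold change ± SE, decitabine over control, for the protein-coding genes around Ptgs2 (left, chromosome 1) and Akr1c18 (right, chromosome 13), in RefSeq order and not to scale of distance. The red points, Ptgs2 at 1.95 and Akr1c18 at 1.86, were picked for their rise, the grey neighbours lie between -0.41 and 0.38, and genes marked "no row" had no row of their own.

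The genes whose 4 array values, each taken from the gene's own mean, ran closest to Ptgs2 were Cxcl3, at a Euclidean distance of 0.17 in log2, Ifit1 (0.17), Lcn2 (0.21), Gfpt2 (0.21) and Cxcl10 (0.21). Akr1c18 itself was at 0.23 from Ptgs2. Closest to Akr1c18 were Lcn2 (0.14), Sprr1a (0.14), Gfpt2 (0.15), Cxcl3 (0.18) and Serpinb2 (0.19). Cxcl3, Lcn2 and Gfpt2 were in both sets. With 4 arrays the distance reflects mainly the size of the difference between the groups, so these are genes that were about as much higher as the picked ones, from 1.67 for Serpinb2 to 1.98 for Ifit1. Sprr1a, a cornified envelope protein gene, shared with Akr1c18 the higher value of decitabine replicate 1, 7.81 against 7.37 on replicate 2.

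**Figure D4:**
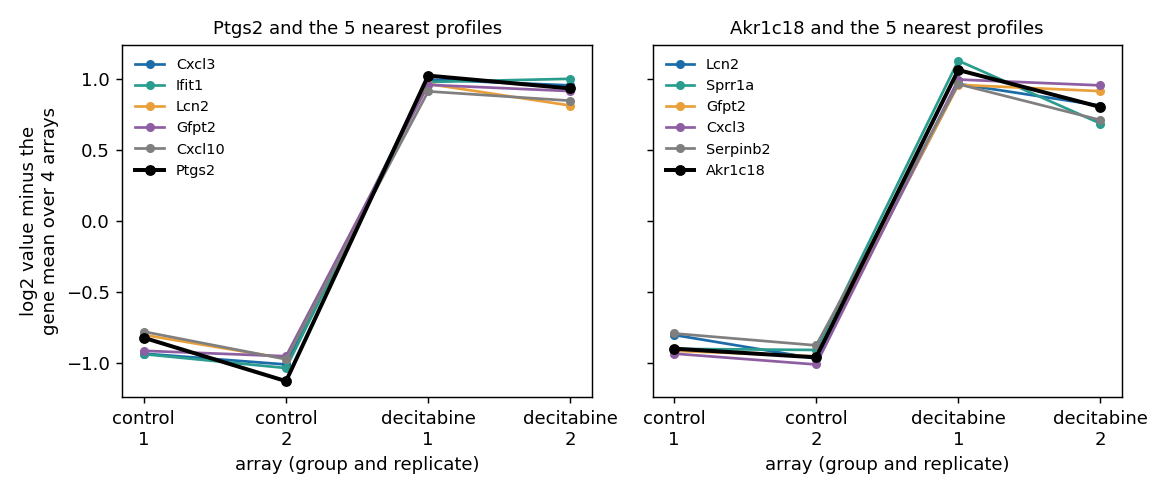
Log2 value minus the gene's mean over the 4 arrays (vertical axis) for Ptgs2 (left) and Akr1c18 (right) in black, with the 5 genes of nearest profile in colour. All lines lie near -1 on both control arrays and near 1 on both decitabine arrays, with Sprr1a, Akr1c18 and Serpinb2 dropping most between decitabine replicates 1 and 2.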

How the data were processed

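Total RNA was labelled with a whole-transcript kit and hybridised to Affymetrix Mouse Gene 2.0 ST arrays, per the labels' protocols. The deposited table holds 1 value per row and array, read here as log2 expression from its range of 0.55 to 13.26; the log base, summarisation, background correction and normalization are not given in the sources used here, and a fold change would differ under another base. Groups come from the sample titles. The platform annotation gave a single symbol to 23521 of the 41345 rows; the highest-mean row of each gene left 22180 genes. The two-sided test was limma's (version 3.58.1, R 4.3.3, eBayes without a trend), adjusted by Benjamini-Hochberg over all genes at a threshold of 0.05, and the fit was tested on simulated data. An exact permutation test of 2 arrays against 2 cannot go below p = 0.333, so none was run.

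The members and lists were chosen with earlier results of these data known. Named genes were all members, the 3 genes of smallest p in each list, and the 5 genes nearest in profile to Ptgs2 and to Akr1c18, leaving out Gm and Rik symbols. The alternatives were quantile normalization, median centring, 2 filters on level, averaged rows, all rows, robust eBayes, a replicate block, an intensity trend, and each array left out in turn. Promoter sequences came from RefSeq (GRCm38.p6) and matched 9 of the 10 genes; RefSeq otherwise served for names, chromosomes and gene order. Plots were made with matplotlib 3.10.9 (Python 3.11.15).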

Additional observations from a re-analysis of the deposited data

How the results depend on the processing

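The count of genes called in limma, 29 higher and 3 lower, depended on the variance model and on which rows were fitted. It was 817 and 798 with an intensity trend, 635 and 616 among genes above the median level, 151 and 64 above the 25th percentile, 15 higher with robust eBayes, 8 lower with centred arrays and 5 lower with the mean of a gene's rows. It was 0 and 0 with the replicate block (unadjusted p under 0.05 in limma for 1423 higher and 1392 lower genes), with all rows fitted (1108 and 1052), and without any 1 array, where all 5 counts were 0 to 0 (1007 to 1640 higher and 846 to 1635 lower). Of the measured genes not picked, 1 was called with the trend, Pla2g4a, and 0 in every other setting run. Other pathway genes called were 6 higher and 7 lower with the trend, 5 and 5 above the median level, 2 and 1 above the 25th percentile, and 1 lower with centred arrays and with the mean of a gene's rows. Filters leave fewer genes to adjust over and also changed the fitted spread. The SE of Ptgs2 was 0.138 in the fit as designed and 0.117 among genes above the median level. The cause of the changes in these counts was not tested. The deviations from the group means of arrays with the same replicate number were nearly uncorrelated (r = -0.02 across genes). With 2 arrays a group this cannot settle whether those arrays were paired.

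Without any 1 array the log2 fold change was 1.80 to 2.11 for Ptgs2, 1.73 to 1.99 for Akr1c18, -0.37 to -0.20 for Pla2g4a and 0.22 to 0.50 for Ptger4, while it changed sign for Ptges (-0.19 to 0.017) and Ptges3 (-0.069 to 0.22). In the other settings it was 1.93 to 1.96 for Ptgs2 and 1.84 to 1.86 for Akr1c18. No signal over background could be had from the deposited values, which limits what can be said of the dim rows of Hpgd, Pdc, Brinp3 and the Akr1c cluster.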
